A study of Mus musculus with 10 samples.

Results

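Mice carrying an Hsp72 transgene (Hsp72Tg) were compared with wild-type (WT) mice after sham surgery, that is, without a stroke. The comparison rests on 4 of the 10 arrays of the series, those titled as sham samples: 2 Hsp72Tg sham and 2 WT sham. All 18193 named genes were read on each array. The series studies how Hsp72 affects astrocyte activation after stroke, and the sham arrays are its animals without the occlusion. All 10 arrays measured total RNA from the operated-side hemisphere of male mice, killed under isoflurane anaesthesia 24 h after surgery. In the sham animals the labels call this hemisphere the control. The other 6 arrays, 3 WT and 3 Hsp72Tg, came from other mice after middle cerebral artery occlusion (MCAO), the study's stroke model, and are given beside the sham values where they bear on them. Not given in the sources used here are the promoter and species of the transgene, the number of founder lines, the strain, the age and the number of mice behind each RNA sample.

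Hsp72 is the inducible member of the Hsp70 chaperones, which bind unfolded stretches of other proteins and release them in cycles driven by ATP. In the mouse it is encoded by a pair of near-identical genes, Hspa1a and Hspa1b, which are low in the resting brain and strongly induced by heat, ischemia and other protein damage. Immediate early genes form another rapid system: synaptic activity, growth factors or stress switch on their transcription within minutes, through factors already present in the cell. CREB, which binds the cyclic AMP response element, and SRF, which binds the CArG box, are the best known of these factors. Many of the products, such as Fos and the Egr proteins, are themselves transcription factors.

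Immediate early genes were the gene list that lay farthest apart between the genotypes after sham surgery. Of 20 immediate early genes, 18 had both Hsp72Tg sham arrays above both WT sham arrays and 0 had both below. Over all genes, 12.8% lay wholly higher and 14.2% wholly lower in Hsp72Tg sham, so 27% did not overlap in either direction. The promoter windows of 6 immediate early genes that lay wholly higher are shown first. They are not the 6 with the largest differences. Arc, Npas4, Fosb, Fosl2, Nr4a3, Dusp6, Egr1 and Ier2 differed more than Btg2 and are not printed. All 6 are among the genes that hold the core marked below. The windows are the 250 bases before the start of each gene, taken from RefSeq on GRCm38.p6 and printed 5′ to 3′ on the gene's strand. They lie at chr12:85473640-85473889 (plus strand) for Fos, chr10:67537619-67537868 (plus) for Egr2, chr8:84978749-84978998 (minus) for Junb, chr15:101266596-101266845 (plus) for Nr4a1, chr17:26508473-26508722 (minus) for Dusp1 and chr1:134079156-134079405 (minus) for Btg2. RefSeq lists 5 windows for Egr2, of which 1 is printed, picked for the most matches to the core and the CArG box. Capitals mark TGACG or its reverse complement CGTCA, the core of the cyclic AMP response element, the full palindrome TGACGTCA, which contains that core on both strands, and the CArG box.
Fos: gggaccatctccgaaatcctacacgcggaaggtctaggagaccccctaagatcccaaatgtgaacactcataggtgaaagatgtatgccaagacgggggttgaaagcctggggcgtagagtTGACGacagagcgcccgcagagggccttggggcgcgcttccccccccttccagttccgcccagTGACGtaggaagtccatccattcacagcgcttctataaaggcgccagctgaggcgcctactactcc
Egr2: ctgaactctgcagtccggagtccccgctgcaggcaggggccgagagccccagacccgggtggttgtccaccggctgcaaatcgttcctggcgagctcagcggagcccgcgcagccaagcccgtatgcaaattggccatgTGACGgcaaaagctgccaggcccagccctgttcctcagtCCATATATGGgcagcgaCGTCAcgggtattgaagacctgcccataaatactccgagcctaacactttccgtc
Junb: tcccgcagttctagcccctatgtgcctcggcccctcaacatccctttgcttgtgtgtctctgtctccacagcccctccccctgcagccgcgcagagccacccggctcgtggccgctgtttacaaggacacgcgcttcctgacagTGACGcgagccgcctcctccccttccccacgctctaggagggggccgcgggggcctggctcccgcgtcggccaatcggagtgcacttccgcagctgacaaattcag
Nr4a1: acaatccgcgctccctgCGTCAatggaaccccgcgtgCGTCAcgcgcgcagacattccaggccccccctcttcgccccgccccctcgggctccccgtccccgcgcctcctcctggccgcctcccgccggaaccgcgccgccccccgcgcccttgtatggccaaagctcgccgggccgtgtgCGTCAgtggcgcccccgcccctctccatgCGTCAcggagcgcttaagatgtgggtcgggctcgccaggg
Dusp1: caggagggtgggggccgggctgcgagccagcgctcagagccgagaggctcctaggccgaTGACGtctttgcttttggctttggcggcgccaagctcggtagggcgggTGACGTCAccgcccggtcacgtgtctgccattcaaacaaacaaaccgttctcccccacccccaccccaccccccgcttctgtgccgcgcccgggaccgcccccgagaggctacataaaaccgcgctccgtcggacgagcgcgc
Btg2: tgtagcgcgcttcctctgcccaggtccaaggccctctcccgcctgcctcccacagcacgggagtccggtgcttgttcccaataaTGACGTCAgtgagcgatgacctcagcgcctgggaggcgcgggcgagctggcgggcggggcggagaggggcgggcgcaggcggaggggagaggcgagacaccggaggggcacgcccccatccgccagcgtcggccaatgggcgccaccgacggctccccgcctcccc

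Fos and Nr4a1 hold 2 and 4 copies of the core in these windows, and Egr2 holds 2 together with a CArG box. Dusp1 and Btg2 carry the full palindrome. Of the 16 immediate early genes with a window in the RefSeq table, 13 held TGACG or CGTCA, beside 19.8% of all 27025 genes with a window. TGACGTCA occurred in 2 of the 16, beside 1.77% of all genes, and the CArG box in 1, beside 1.62%. Base composition was not adjusted for, and a match of letters is a description, not a site in use.

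The genes named by the genotype were read first. Hspa1b had log2 RMA values of 9.38 and 9.48 in the WT sham arrays and 9.12 and 9.15 in the Hsp72Tg sham arrays. Both Hsp72Tg arrays were thus slightly lower. The difference of the means was -0.29 (SE 0.51, 95% interval -1.42 to 0.84). The 3 probe sets for Hspa1b gave differences from -0.29 to -0.09, and only the brightest kept the genotypes apart. Hspa1a, read by 1 probe set, had 8.54 and 8.45 in WT sham and 8.28 and 8.53 in Hsp72Tg sham. These values overlap, with a difference of -0.09 (SE 0.64, 95% interval -1.52 to 1.35). Without the array Hsp72Tg sham 1 it was 0.04. Neither gene was higher in the mice labelled transgenic, and whether these mouse probe sets read the transgene's RNA was not tested. The genotype of each array is therefore taken from its label alone. On the 6 MCAO arrays the brightest Hspa1b probe set read between 11.85 and 13.96 and the others from 10.81 and 11.29 upward, above every sham array, so they were not at their ceiling in the sham samples. The near-identity of the gene pair means that their probe sets can share RNA.

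The rest of the Hsp70 family showed small differences in both directions. All 15 genes on the family list were measured, 3 lay wholly higher, 4 wholly lower and 8 overlapped. Among all genes 12.8% lay wholly higher and 14.2% wholly lower. The median difference was -0.07, beside -0.01 (-0.005) over all genes. Hsph1, a nucleotide exchange factor for Hsp70, read 11.26 and 11.59 in WT sham and 11.75 and 12.003 in Hsp72Tg sham (difference 0.45, SE 0.25). Hspa5, the chaperone of the endoplasmic reticulum also called BiP, read 11.55 and 11.63 against 11.94 and 11.80. Hspa8, the constitutive cytosolic member, read 13.59 and 13.70 against 13.82 and 13.79. Among the lower ones were Hspa2, which is abundant in the testis, at 8.65 and 8.42 in WT against 8.37 and 8.07, and Hyou1, an exchange factor of the endoplasmic reticulum, at 9.66 and 9.55 against 9.31 and 9.30. None of these intervals excluded 0.

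The partners of Hsp70 leaned higher in value. Of 28 measured co-chaperones and other heat shock genes, 11 lay wholly higher and 3 wholly lower, with a median difference of 0.11. The shares over all genes were 12.8% and 14.2%. Stip1, which passes client proteins from Hsp70 to Hsp90, read 10.21 and 10.26 in WT sham and 10.65 and 10.45 in Hsp72Tg sham (difference 0.31, SE 0.14). Cryab, a small heat shock protein of glia, had the largest difference of this list at 0.58 (SE 0.58), with 10.24 and 10.84 against 11.29 and 10.95. Ahsa1 and Chordc1, both partners of Hsp90, read 0.27 (SE 0.12) and 0.34 (SE 0.21) higher. Genes of endoplasmic reticulum stress gave 5 higher, 1 lower and a median of 0.05 over 15, where the luminal calcium-binding chaperone Calr read 12.19 and 12.39 against 12.65 and 12.62.

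Across all genes, limma called 0 of 18193 genes (0%) at an adjusted p under 0.05. At an unadjusted p under 0.05 there were 283 genes (1.56%), of which 127 were higher (0.698%) and 156 lower (0.857%) in Hsp72Tg sham. The smallest adjusted p was 1. The fit estimated the spread from all 4 groups, MCAO arrays included, and its p-values measure only the spread between these samples. An exact permutation test of 2 against 2 arrays cannot give a p below 0.333. With only the 4 sham arrays, limma called 3 genes, Cap1, Rbm45 and Tmem87a, with adjusted p of 0.000648, 0.00571 and 0.0127. Array counts this small are therefore described by array values that do not overlap.

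A gene was taken as separated when both Hsp72Tg sham arrays lay on one side of both WT sham arrays and the nearest arrays of the genotypes were at least 0.5 apart (1.41-fold). Genes of the cerebellum and olfactory bulb lists, and genes whose 2 arrays of either genotype lay farther apart than the nearest arrays of the 2 genotypes, were set aside. The minimum of 0.5 was reached by 42 genes (0.231%). Of these, 5 were set aside for their range within a genotype (Tph2, Klf10, Arc, Mir1931 and Fosb) and 0 for a region. This left 37 separated genes (0.203%), 28 higher (0.154%) and 9 lower (0.0495%) in Hsp72Tg sham. Just inside the distance lay Lsm11 at 0.502 and Ctla2a at 0.510, and just outside it Egr3 at 0.499 and Nfil3 at 0.484. A distance of at least 1 was reached by 7 of them: Cap1, Rbm45, Egr2, Tmem87a and Fos were higher, and Baiap2l1 and Cfap54 were lower. Since the rule used these values, they are a description and carry no test.

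**Figure D1:**
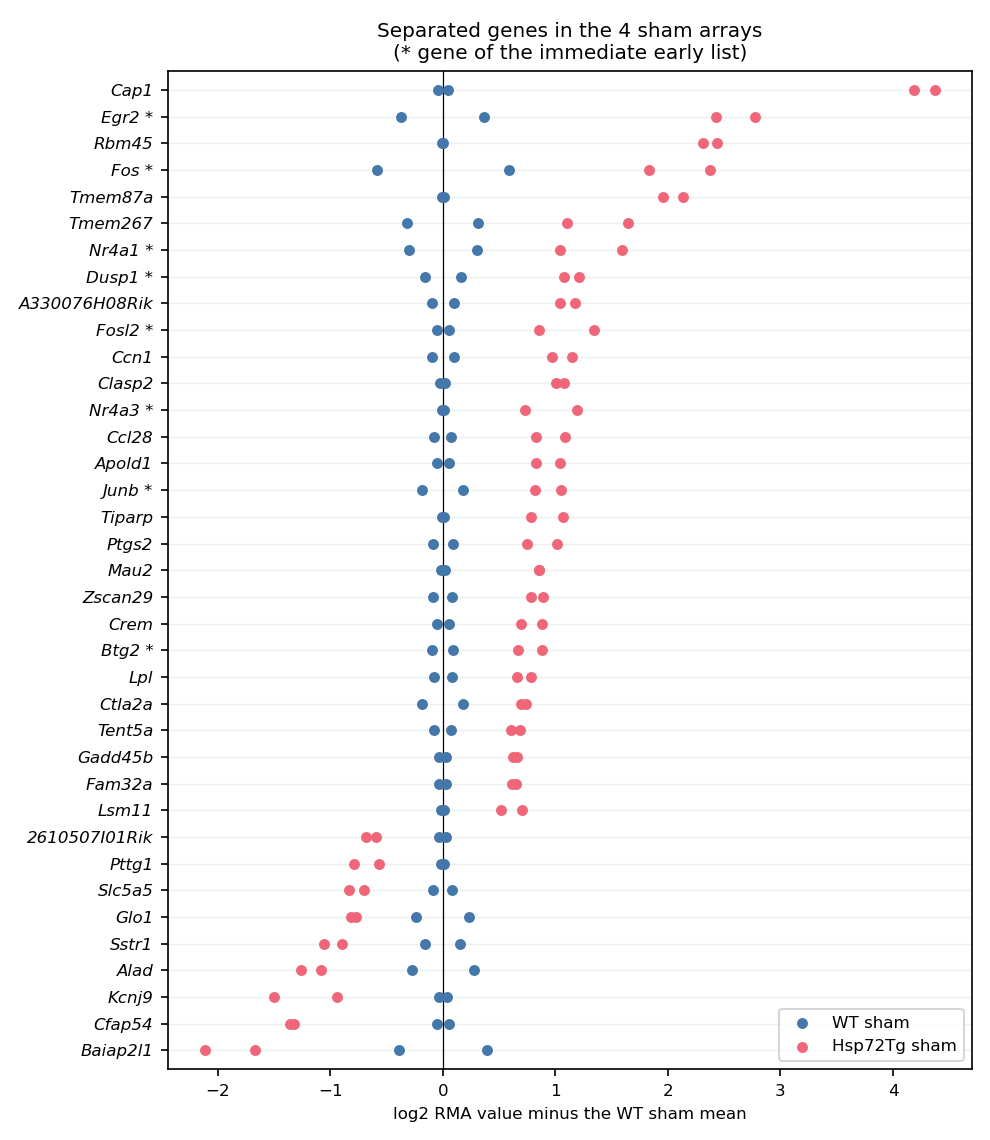
The 37 separated genes in the 4 sham arrays. Each point is 1 array, the horizontal axis gives the log2 RMA value minus the mean of the WT sham arrays, and an asterisk marks the immediate early list. 28 genes lie to the right (higher in Hsp72Tg sham) and 9 to the left, with Cap1 farthest out on the right and Baiap2l1 on the left.

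Some sham arrays stood apart in ways that the genotype does not cover. WT sham 1 was 2-fold or more above the other 3 sham arrays in 17 genes, 7 of them cerebellar and 4 glucocorticoid-induced, and 2-fold or more below them in 8. The corresponding counts above and below were 1 and 1 for WT sham 2, 3 and 0 for Hsp72Tg sham 1 and 2 and 0 for Hsp72Tg sham 2. All 12 cerebellar markers were highest in WT sham 1: Gabra6, the granule cell GABA receptor subunit, read 9.46 there and 4.15 to 4.44 in the other sham arrays. Markers of the olfactory bulb were high in WT sham 2 and Hsp72Tg sham 1, as for Cdhr1 (mitral and tufted cells) at 9.44 and 9.90 against 7.83 and 7.16. Array medians lay between 6.68 and 6.72. Across genes, which are not independent replicates, the sham arrays correlated at r between 0.9925 for the Hsp72Tg pair and 0.9963 for the WT pair. The 3′ minus 5′ log2 signal of the Actb control ranged from 0.936 to 0.984 over the sham arrays.

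Among the separated genes, 8 belonged to the immediate early list: Fos, Egr2, Dusp1, Fosl2, Nr4a1, Nr4a3, Junb and Btg2. All 8 were higher in Hsp72Tg sham. Over the whole list all 20 genes were measured and all 20 had a higher mean in Hsp72Tg sham, with a median difference of 0.90 and a range from 0.08 to 2.60. Jun and Klf4 were the 2 whose arrays overlapped. None was called by limma, and 10 had an unadjusted p under 0.05 (0.698% of all genes in this direction). In a whole hemisphere, more cells expressing a gene and more RNA per cell cannot be told apart.

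Fos, a subunit of the transcription factor AP-1, read 8.37 and 9.54 in the WT sham arrays and 10.79 and 11.33 in the Hsp72Tg sham arrays. Both transgenic arrays were high, and WT sham 1 was the lowest by a wide margin. The difference was 2.11 (SE 0.77), or 4.31-fold. Egr2, a zinc finger transcription factor, read 5.37 and 6.11 in WT sham and 8.17 and 8.51 in Hsp72Tg sham. The difference of 2.60 (SE 0.67), or 6.06-fold, was the largest of the list, and its other probe set gave 2.70. The windows printed above, for Egr2 that with the most matches, place copies of the cyclic AMP response element core in front of both genes.

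The other AP-1 genes differed less. Fosl2 read 7.46 and 7.35 in WT sham against 8.26 and 8.75 in Hsp72Tg sham, a difference of 1.10 (SE 0.30). Its dimmer probe set overlapped and gave 0.20. Junb read 7.24 and 7.61 against 8.24 and 8.47 (difference 0.93, SE 0.23). Fosb, which was set aside because its Hsp72Tg arrays lay far apart, read 5.46 and 5.35 against 6.16 and 6.93. Jun, the partner of Fos that is also a target of stress kinases, read 9.25 and 9.44 against 9.34 and 9.51. Its difference of 0.08 (SE 0.40, 95% interval -0.81 to 0.97) was the smallest of the list.

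The orphan nuclear receptors of the Nr4a family lay wholly higher in Hsp72Tg sham on their brightest probe sets. Nr4a1 read 10.12 and 10.73 in WT sham and 11.47 and 12.02 in Hsp72Tg sham (difference 1.32, SE 0.45). Nr4a3 read 9.11 and 9.13 against 9.85 and 10.31 (difference 0.96, SE 0.25). This rested on 1 of its 3 probe sets, since the dimmer ones gave -0.01 and -0.04. Nr4a2 read 8.94 and 9.01 against 9.18 and 9.62. Of its 6 probe sets 4 lay wholly higher, and the probe set with a difference of -0.096 lay wholly lower. Among the Egr genes, Egr1 read 11.66 and 12.10 against 12.43 and 13.02, and Egr3 read 10.32 and 10.46 against 10.96 and 11.22. The dimmer probe set of Egr3 overlapped, with a difference of 0.06.

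Of the other members of the list, 5 are given with their values. Arc, which drives the removal of glutamate receptors from synapses, read 8.98 and 10.12 in WT sham and 10.71 and 11.79 in Hsp72Tg sham (difference 1.70, SE 0.60). Npas4, a transcription factor that neurons induce on calcium entry, read 6.65 and 8.13 against 8.55 and 9.13. Its SE of 1.02 beside a difference of 1.45 reflects the wide spread of the arrays. Dusp1, a phosphatase that switches off MAP kinases, read 9.78 and 10.10 against 11.02 and 11.15 (difference 1.15, SE 0.35). Btg2, an antiproliferative gene, read 7.87 and 8.05 against 8.84 and 8.63. Homer1, a scaffold of the synapse with a short form induced by activity, differed by 0.21 on its brightest probe set, and all 6 of its probe sets lay wholly higher, by 0.14 to 1.78.

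The arrays kept much the same order over the list. WT sham 1 was the lowest sham array in 16 of the 20 genes, and Hsp72Tg sham 2 the highest in 19. The mean log2 value over the 20 genes was 8.46 and 8.84 in the WT sham arrays and 9.47 and 9.87 in the Hsp72Tg sham arrays. WT sham 1 is also the array in which all 12 cerebellar markers were highest, so the list was also read without it: the median difference was then 0.73. Leaving out each sham array in turn gave medians from 0.73 to 1.09. The count of genes wholly higher was 18 to 20 in these readings and cannot fall when an array is removed. WT sham 1 was also the lowest sham array in 12 of 13 microglia markers, with list means of 7.93 beside 8.47 in WT sham 2 and 8.51 and 8.16 in Hsp72Tg sham. It was the highest in 6 of 8 neutrophil markers. The part of tissue composition in the immediate early difference was not tested.

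**Figure D2:**
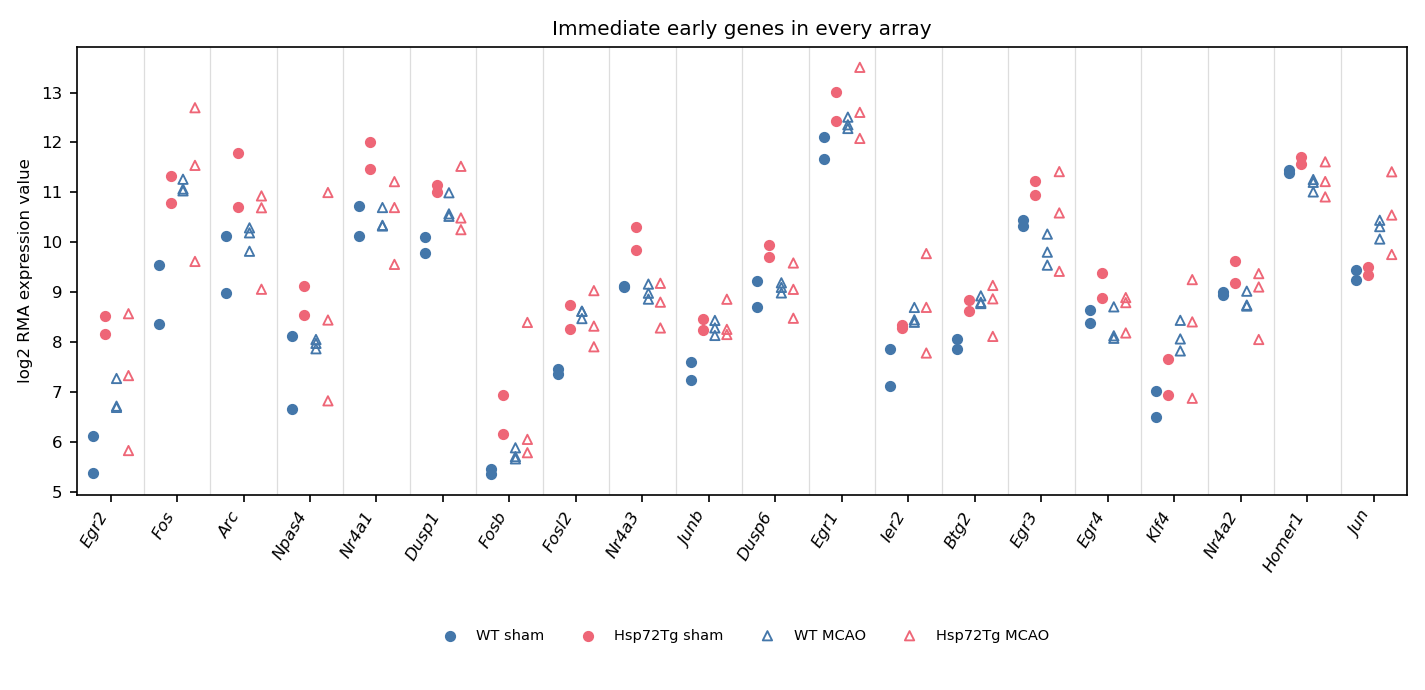
The 20 immediate early genes in all 10 arrays, ordered by their genotype difference after sham surgery. The vertical axis is the log2 RMA value, filled circles are sham arrays, open triangles MCAO arrays, blue WT and red Hsp72Tg. In 18 genes both red circles lie above both blue circles, while the red and blue triangles overlap in every gene.

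Ischemia is known to induce such genes, and the sham values were set beside the MCAO arrays of the WT mice. Both Hsp72Tg sham arrays lay above all 3 WT MCAO arrays in 12 of the 20 genes, beside 16.7% of all genes: Fosb, Egr2, Egr3, Egr4, Arc, Npas4, Nr4a1, Nr4a2, Nr4a3, Dusp1, Dusp6 and Homer1. Nr4a1, for example, read 10.70, 10.33 and 10.34 in WT MCAO, below the 11.47 and 12.02 of Hsp72Tg sham. Fos did not share this, with 11.03, 11.07 and 11.26 in WT MCAO, between the 10.79 and 11.33 of Hsp72Tg sham. Jun read 10.07, 10.31 and 10.44 in WT MCAO, above all 4 sham arrays. The 12 genes were not all higher in WT MCAO than in WT sham. Egr3 read 10.32 and 10.46 in WT sham and 10.16, 9.54 and 9.80 in WT MCAO. Homer1 read 11.45 and 11.39 in WT sham and 11.20, 11.26 and 11.01 in WT MCAO. Dusp1 went the other way, with 9.78 and 10.10 in WT sham and 10.99, 10.52 and 10.57 in WT MCAO.

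After MCAO, with all 6 arrays, the genotypes overlapped in all 20 genes. Over all genes, 7.44% did not overlap among the MCAO arrays, 2.75% higher and 4.69% lower in Hsp72Tg. The median difference of the 20 genes was 0.13, with a range from -0.25 to 0.99, and 16 of 20 means were higher in Hsp72Tg MCAO. The mean over the list was 9.35, 9.10 and 9.17 in the WT MCAO arrays and 9.04, 10.22 and 8.98 in the Hsp72Tg MCAO arrays, so 1 transgenic array, Hsp72Tg MCAO 2, was far above the rest. Hsp72Tg MCAO 1 also stood apart: in 26 of 46 genes whose arrays fall on a low and a high level (a step of at least 1 log2 unit that exceeds the range on either side), it was low with the 4 sham arrays while the other 5 MCAO arrays were high. For Fos it read 9.62 beside 12.70 and 11.54 in its companions, and for Egr2 5.83 beside 8.57 and 7.33. Without it, 5 of the 20 genes lay wholly higher in Hsp72Tg MCAO (Fos, Jun, Egr1, Egr2 and Ier2), beside 9.65% of all genes, and the median was 0.29. Without Hsp72Tg MCAO 2, 0 lay wholly higher and 3 wholly lower (8.18% of all genes), with a median of -0.26. Without Hsp72Tg MCAO 3, 6 lay wholly higher (Fosb, Egr3, Egr4, Arc, Npas4 and Nr4a2), beside 7.81%. The overlap after MCAO thus depended on single transgenic arrays, and the sign of the median on Hsp72Tg MCAO 2. The difference between the genotype effects after MCAO and after sham surgery was negative in 19 of 20 genes, with a median of -0.73. The sham values that set these genes apart enter this difference, so its sign is a description. Over all genes limma called 0 of 18193 for this interaction, with 319 (1.75%) at an unadjusted p under 0.05.

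A wider set of 34 genes induced by neuronal activity, growth factors or stress, assembled after their values were seen, read higher in Hsp72Tg sham too. Of these, 27 lay wholly higher and 0 wholly lower, beside 12.8% and 14.2% of all genes, with a median difference of 0.47. Because the values guided its choice, this count is a description. Ccn1, a matricellular protein, read 6.89 and 7.08 in WT sham against 8.14 and 7.95 in Hsp72Tg sham. Ptgs2, the inducible cyclooxygenase, read 7.17 and 7.34 against 8.27 and 8.002. Crem, which includes the cyclic AMP early repressor, read 7.09 and 7.20 against 8.03 and 7.84 (difference 0.79, SE 0.20). Tiparp, Apold1 and Gadd45b were the other 3 separated genes of this set, with differences of 0.92, 0.94 and 0.64. Bdnf, the neurotrophin induced by activity, read 8.48 and 8.91 against 9.27 and 9.498. Nptx2, a secreted synaptic pentraxin, differed by 1.12 (SE 0.54), with 7.20 and 8.29 against 8.71 and 9.03. Some members hardly differed: Plk2 read 0.02 higher, Ppp1r15a 0.02 lower (-0.02) and Maff 0.07 lower (-0.07).

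Some of these genes were far higher still on the MCAO arrays. Gadd45b read 8.93 and 8.97 in Hsp72Tg sham and 9.98 to 10.34 in WT MCAO. Ctla2a, a separated gene outside both sets that encodes a cysteine protease inhibitor, read 8.02 and 8.06 in Hsp72Tg sham and 10.06 to 10.61 in WT MCAO. Egr2 showed the opposite order, with 6.69 to 7.27 in WT MCAO, below both Hsp72Tg sham arrays.

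Of the 37 separated genes, 23 lay outside both sets, 14 higher and 9 lower. Cap1, which encodes a regulator of actin turnover, had the largest difference of the 18193 genes. It read 5.91 and 6.002 in the WT sham arrays and 10.14 and 10.33 in the Hsp72Tg sham arrays. The difference was 4.28 (SE 1.12), or 19.4-fold, and the second probe set gave 4.45. The MCAO arrays did not follow the genotype. The WT MCAO arrays read 6.49, 6.55 and 6.59, and the Hsp72Tg MCAO arrays read 10.57, 6.32 and 6.28. Only Hsp72Tg MCAO 1 among them was at the high level, and its 2 companions were at the level of the WT arrays. Without that array, limma gave adjusted p = 1.04e-07 for Cap1 and 0.000487 for Tmem87a, and called no other gene.

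Tmem87a, a Golgi membrane protein gene, had the same 3 arrays high. It read 6.54 and 6.56 in WT sham, 8.51 and 8.69 in Hsp72Tg sham and 8.72, 6.59 and 6.83 in Hsp72Tg MCAO. The WT MCAO arrays read 6.80, 6.49 and 6.597. Only these 2 genes of 18193 had Hsp72Tg sham 1, Hsp72Tg sham 2 and Hsp72Tg MCAO 1 at least 1 log2 unit above the other 7 arrays, and 0 genes had them that far below. Rbm45, which encodes an RNA-binding protein, read 6.76 and 6.75 in WT sham and 9.19 and 9.07 in Hsp72Tg sham (difference 2.38, SE 0.57). Here the MCAO arrays of both genotypes were split. WT MCAO read 8.76, 9.04 and 7.24, and Hsp72Tg MCAO read 8.86, 7.43 and 8.71.

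The 3 genes shared the stepped pattern, in which the 10 arrays fall on a low and a high level with nothing between. By the rule above, added after the values were seen, 46 genes had such a pattern, and 3 of them were separated in the sham arrays. The SE of Cap1 was 1.12 in the fit of all arrays and 0.12 in the fit of the 4 sham arrays, since the first holds the split of the MCAO arrays. What the levels follow apart from the genotype labels was not tested.

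Other genes higher in Hsp72Tg sham were read as follows. Tmem267, a membrane protein gene, had the smallest unadjusted p of all genes (0.000137, adjusted p = 1 in limma). It read 8.17 and 7.54 in WT sham and 9.504 and 8.96 in Hsp72Tg sham, and 8.74 to 9.14 over the 6 MCAO arrays. Clasp2, a microtubule plus-end protein, read 10.26 and 10.22 against 11.32 and 11.25. Of its 5 probe sets 4 lay wholly higher, and the other lay wholly lower with a difference of -0.28. After MCAO Clasp2 read 11.03, 10.29 and 11.01 in WT and 10.11, 10.97 and 11.00 in Hsp72Tg. Zscan29, a zinc finger gene, read 5.18 and 5.35 against 6.05 and 6.15. Lpl, lipoprotein lipase, read 9.25 and 9.41 against 10.12 and 9.99 (difference 0.72, SE 0.16), with 9.65 to 10.17 over the MCAO arrays of both genotypes. Mau2, a loader of cohesin, read 7.75 and 7.71 against 8.58 and 8.58 on 1 of its 4 probe sets.

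**Figure D3:**
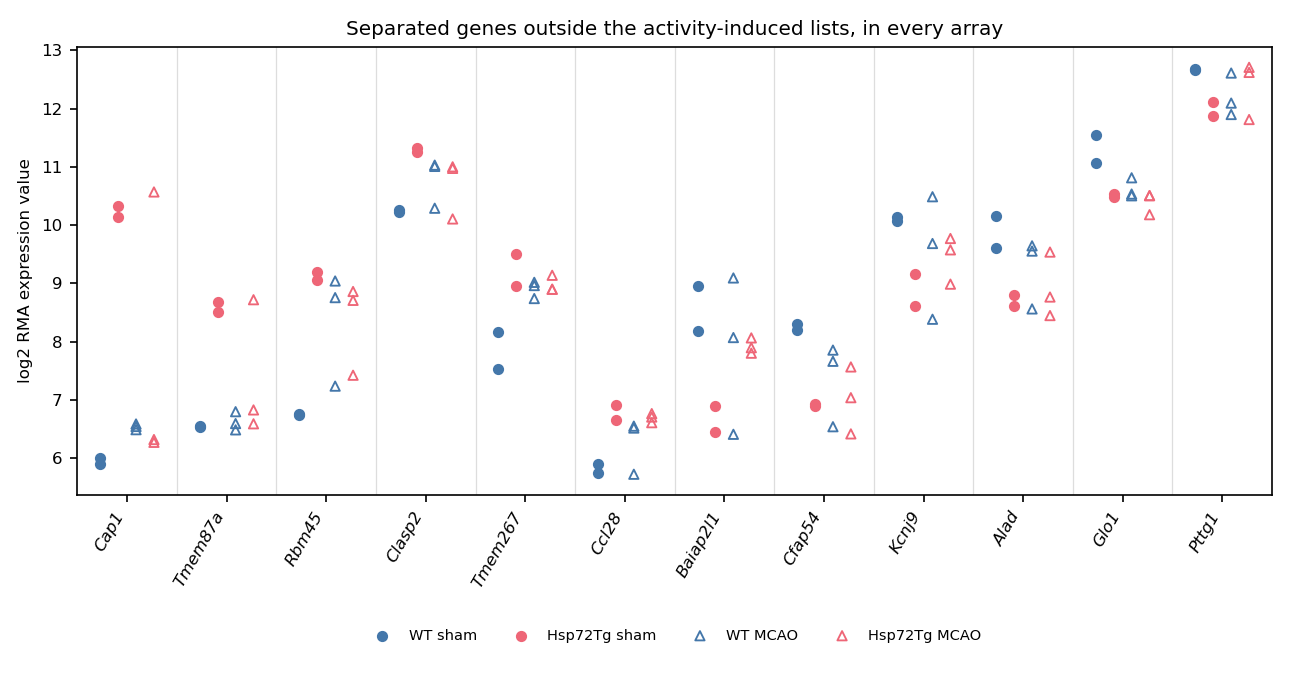
12 separated genes outside the activity-induced sets in all 10 arrays. The vertical axis is the log2 RMA value, filled circles are sham arrays, open triangles MCAO arrays, blue WT and red Hsp72Tg. For Cap1 and Tmem87a 1 red triangle joins the red circles and 2 lie with the WT arrays, and for most other genes the triangles of both colours mix.

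The genes lower in Hsp72Tg sham were of mixed function. Baiap2l1, which links actin to membrane curvature, read 8.96 and 8.18 in WT sham and 6.90 and 6.45 in Hsp72Tg sham. Its second probe set gave a larger difference of -2.87 beside -1.89 (SE 0.66). The MCAO arrays did not follow the genotype for Baiap2l1, with 9.09, 6.41 and 8.07 in WT and 8.07, 7.80 and 7.90 in Hsp72Tg. Cfap54, a component of motile cilia, read 8.20 and 8.30 against 6.89 and 6.92 (difference -1.34, SE 0.42). Kcnj9, a subunit of potassium channels opened by G proteins, read 10.07 and 10.14 against 8.61 and 9.16. Only 1 of its 4 probe sets kept the genotypes apart, and another was higher in Hsp72Tg by 0.17. After MCAO the brightest probe set of Kcnj9 read 10.49, 8.39 and 9.685 in WT and 8.99, 9.58 and 9.77 in Hsp72Tg. Sstr1, a somatostatin receptor, read 6.62 and 6.93 against 5.72 and 5.88, and Slc5a5, the iodide transporter, read 7.99 and 7.82 against 7.20 and 7.07. The dimmer probe set of Slc5a5 overlapped, with a difference of -0.18. Pttg1, the securin that holds sister chromatids together, read 12.68 and 12.66 against 12.11 and 11.88, and all 3 of its probe sets lay wholly lower.

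Glo1 and Alad vary in copy number between laboratory strains of mice. Glo1, which detoxifies methylglyoxal, read 11.07 and 11.54 in WT sham and 10.53 and 10.49 in Hsp72Tg sham, and all 4 of its probe sets lay wholly lower, by -0.80 to -0.60. On the MCAO arrays it read 10.81, 10.53 and 10.50 in WT and 10.51, 10.18 and 10.51 in Hsp72Tg. Alad, an enzyme of heme synthesis, read 9.60 and 10.15 against 8.80 and 8.62 after sham surgery, and 9.64, 9.55 and 8.56 against 8.77, 8.45 and 9.54 after MCAO. Both genes thus varied between arrays of one genotype. Of the 7 measured genes on a list of such strain-variable genes, 2 lay wholly higher and 3 wholly lower, beside 12.8% and 14.2% of all genes. The part of genetic background in the sham comparison was not tested.

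The MCAO arrays gave a reading of the separated genes in mice that the rule did not use. Of the 37 genes, 1 had all 3 Hsp72Tg MCAO arrays beyond all 3 WT MCAO arrays in the same direction, and 0 in the opposite one. The matching share was 4.44%, or 218 of the 4915 genes that did not overlap after sham surgery, and 1.2% of all genes. Without Hsp72Tg MCAO 1, which was at the sham level in the 26 stepped genes above, the count was 8 in the same direction (Fos, Egr2, Ccn1, Gadd45b, Ctla2a, Tent5a, 2610507I01Rik and Ccl28) and 3 in the opposite one. The matching share was then 14.1%. Without Hsp72Tg MCAO 2 the counts were 2 and 4, and without Hsp72Tg MCAO 3 they were 2 and 2, with matching shares of 8.77% and 10.7%. All these matching shares count the same direction only. No share over all genes was computed for the opposite direction, so those counts have no background. Removing an array makes non-overlap easier by construction. The gene that repeated with all arrays was Ccl28, a chemokine of epithelia. It read 5.75 and 5.90 in WT sham, 6.65 and 6.91 in Hsp72Tg sham, 5.73, 6.52 and 6.55 in WT MCAO and 6.77, 6.71 and 6.61 in Hsp72Tg MCAO. The distance between the nearest MCAO arrays was small, and the other 2 of its 3 probe sets overlapped after sham surgery. The means after MCAO had the same sign as after sham surgery in 25 of 37 genes. For the 23 genes outside the activity-induced sets, each MCAO value was placed by the midpoint between the nearest sham arrays of the genotypes. WT MCAO arrays lay on the WT side in 30 of 69 values, and Hsp72Tg MCAO arrays on the Hsp72Tg side in 45 of 69. Shares over all genes were not computed for these counts or for the 25 of 37, so they carry no background.

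Probe sets bore on how firmly a separated gene was read. Of the 37, 12 had 1 probe set. Of the 25 with more, 16 had all of them wholly on the same side, and for 6 only the brightest was. With the mean over probe sets in place of the brightest, 24 genes were separated, 23 of which were among the 37.

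Markers of brain cell types showed little difference, and the differences are given by list. All counts here and in the next paragraph stand beside 12.8% wholly higher and 14.2% wholly lower over all genes. Astrocytes, the cells the series is about, had 15 markers measured, 0 wholly higher and 2 wholly lower, with a median of -0.05 (-0.055). The lower ones were Aldh1l1, a folate enzyme, and S100b, a calcium-binding protein. Genes of reactive astrocytes gave 3 higher and 3 lower of 13, with a median of 0.07. Gfap, the intermediate filament raised in reactive astrocytes, read 10.05 and 10.77 in WT sham and 10.28 and 10.45 in Hsp72Tg sham. Lcn2, a secreted protein of reactive astrocytes, read 5.30 and 5.27 against 6.79 and 5.66, a difference of 0.93 (SE 1.30) with Hsp72Tg sham 1 far above the other 3 arrays.

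Microglia markers had a median of 0.16 with 1 of 13 wholly higher and 0 lower. Neuronal markers had a median of 0.04 (0.035) with 1 higher and 2 lower of 15. Oligodendrocyte markers gave 1 higher and 0 lower of 10, endothelial markers 2 and 0 of 11, and mural and meningeal markers 2 and 0 of 13. Inflammatory mediators gave 3 higher and 2 lower of 17, and genes induced by interferon 2 and 0 of 13. Defining markers of neurons, astrocytes and oligodendrocytes were bright on every sham array, with list means of 12.13 to 12.32, 11.15 to 11.27 and 10.91 to 11.22. Markers of the cortex and hippocampus gave 1 higher and 3 lower of 12 with a median of -0.10, and those of striatal neurons 1 and 0 of 10 with a median of 0.07.

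**Figure D4:**
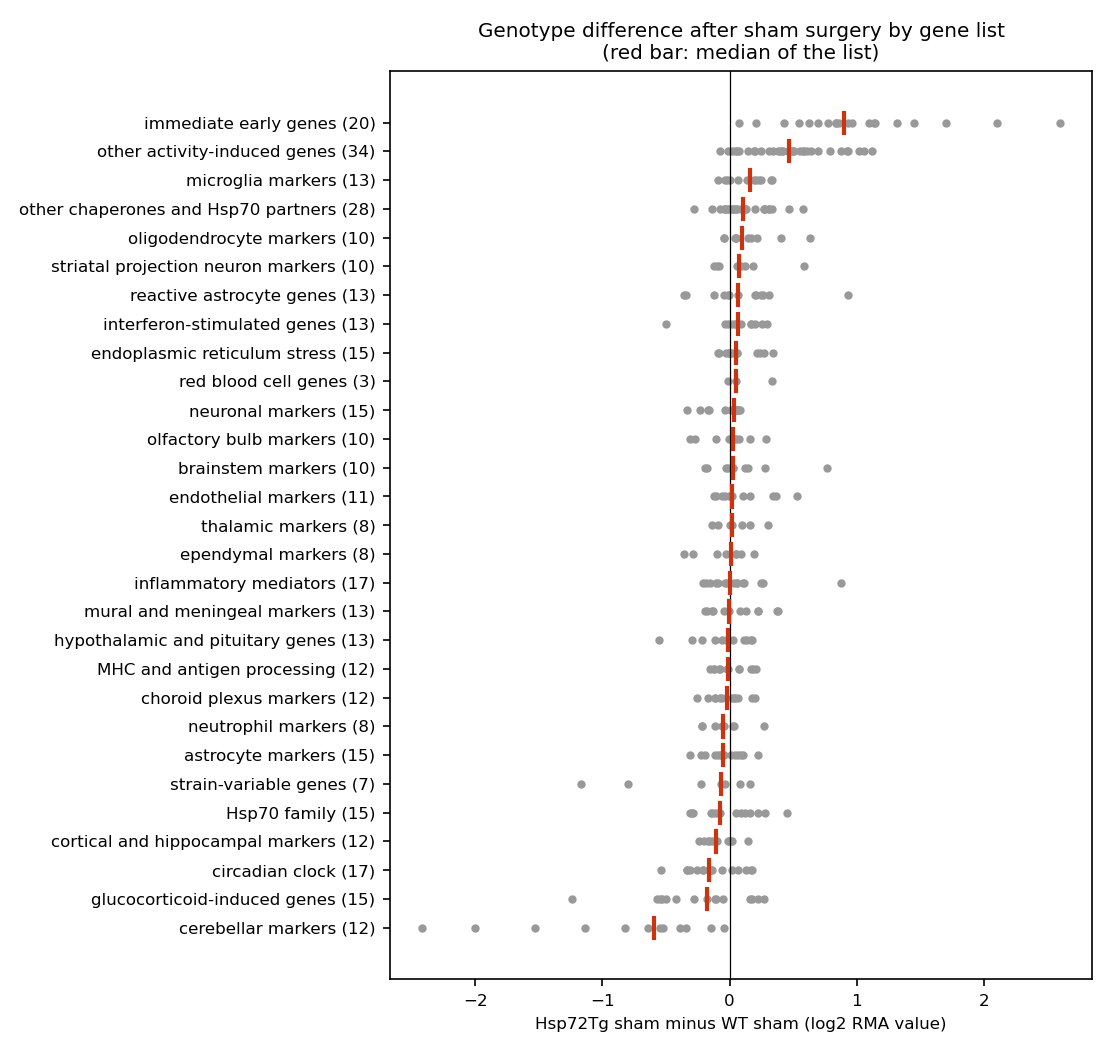
Genotype difference after sham surgery by gene list, with the number of genes in parentheses. Each grey point is 1 gene, the horizontal axis is Hsp72Tg sham minus WT sham in log2 RMA value, and the red bar is the median of the list. Immediate early genes have the highest median at 0.90 and cerebellar markers the lowest at -0.60, where WT sham 1 was the highest array in all 12 genes.

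The circadian clock and glucocorticoid lists had medians below 0, and in both a single array stood apart. Of 17 clock genes, 0 lay wholly higher and 5 wholly lower (Per3, Tef, Ciart, Bhlhe41 and Usp2), with a median of -0.16. The shares over all genes were 12.8% and 14.2%. Hsp72Tg sham 1 was the lowest sham array in 11 of the 17 clock genes. The mean over the clock list was 9.25 there, 9.52 in Hsp72Tg sham 2, and 9.51 and 9.53 in the WT sham arrays. Per3, a period gene of the clock, read 8.83 and 8.91 in WT sham and 8.10 and 8.56 in Hsp72Tg sham (difference -0.54, SE 0.18). The hour of killing is not given in the sources used here. Of 15 genes induced by glucocorticoids, 1 lay wholly higher and 0 lower, and WT sham 1 was the highest array in 12. The mean over this list was 10.03 in WT sham 1, 9.11 in WT sham 2, 9.37 in Hsp72Tg sham 1 and 9.28 in Hsp72Tg sham 2. The lipid droplet gene Plin4 read 9.32 in WT sham 1 and 6.81 to 7.08 in the other sham arrays. The array lowest in most immediate early and microglia genes was thus the highest in most glucocorticoid-induced, cerebellar and neutrophil genes.

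**Figure D5:**
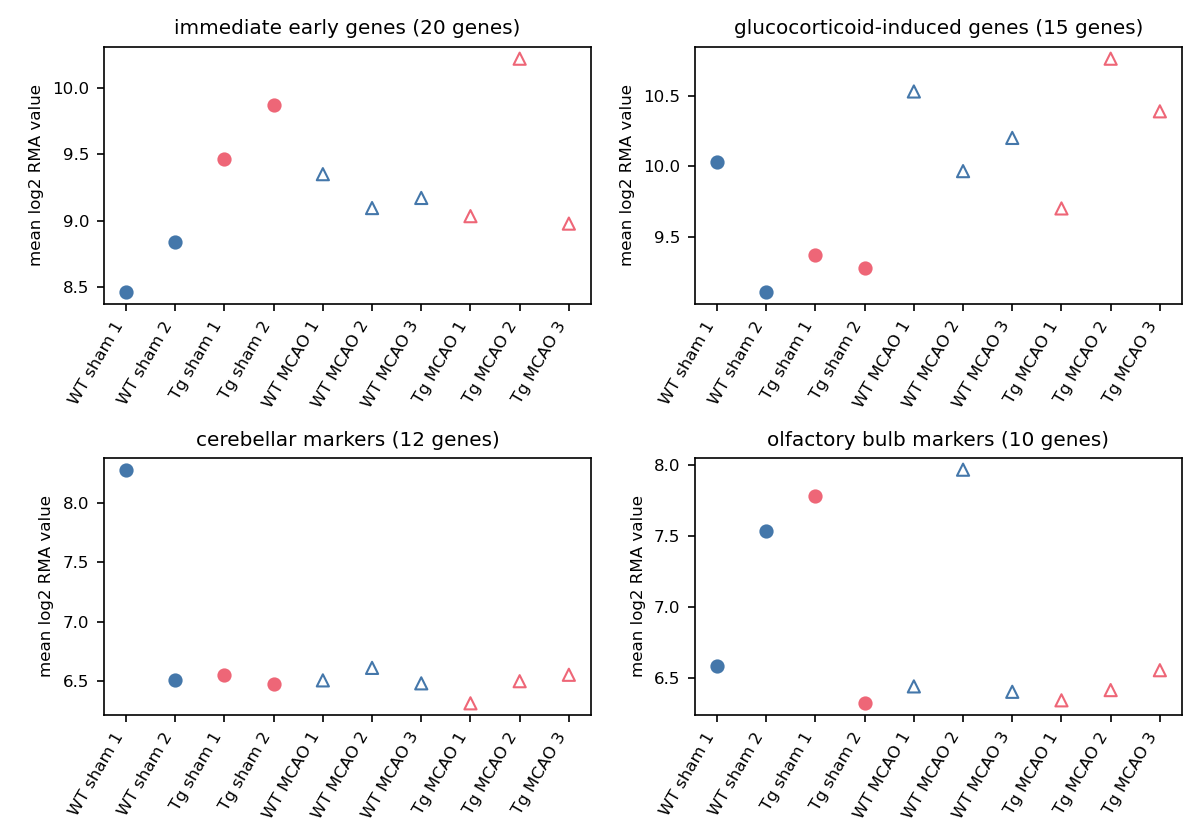
Mean log2 RMA value of 4 gene lists in each of the 10 arrays, with circles for sham and triangles for MCAO, blue for WT and red for Hsp72Tg. The vertical axes do not start at 0. The immediate early list orders the sham arrays by genotype, the glucocorticoid and cerebellar lists set WT sham 1 apart, and the olfactory bulb list sets WT sham 2 and Hsp72Tg sham 1 apart.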

How the data were processed

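The deposited table gives 1 log2 expression value per probe set and array. The submitters' processing notes name RMA, which subtracts background, equalizes the arrays and combines the probes of a set. Its version is not given in the sources used here. No scanner file was read, so dim probe sets carry no background call, and the number of arrays limits the precision. Of 45101 probe sets, 64 controls were left out, 34945 had 1 gene symbol in the platform annotation, 932 several and 9160 none. Entrez identifiers matched RefSeq (GRCm38.p6) for 34741, and 0 symbols changed. For 9010 of the 18193 genes the brightest of several probe sets over the 10 arrays was used.

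limma 3.58.1 in R 4.3.3 (lmFit, contrasts.fit, eBayes) fitted 1 mean per group over all 10 arrays. Its two-sided p-values were adjusted by Benjamini-Hochberg, with calls under 0.05. The code was run on independent normal values simulated from the fitted means and spreads. Such values lack single arrays that stand apart, so this run does not cover them. Named were the Hsp70 family, up to 15 separated genes per direction by distance, those repeated after MCAO, the 3 smallest p per direction and up to 3 members per list by difference. Further members of the lists were chosen after their values were seen. The comparison, its rules and all lists were chosen with earlier results of these data known. Alternatives covered the arrays fitted, the replicate number as a block, eBayes options, array weights, scaling, probe sets, dim genes, the distance and each array left out. Those for the immediate early counts, leaving out MCAO arrays for them, and the block on the 4 sham arrays, were added after seeing the data.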

Additional observations from a re-analysis of the deposited data

How the results depend on the processing

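Same-numbered sham arrays of the genotypes had deviations from their group means that correlated at r = -0.025. With 2 arrays a group, both numbers give this value by construction, so it is 1 reading. Same-numbered MCAO arrays gave 0.054, -0.156 and 0.249. Pairing by replicate number was not tested further. With the replicate number as a block, limma called 0 genes (279 at an unadjusted p under 0.05). With the block on the 4 sham arrays alone it called 4, adding Egr2 (adjusted p = 0.0405), and the 4 sham arrays without a block gave 3. Leaving out each array gave 0 to 3 called genes: without WT sham 2 these were Gabra6, Pcp2 and Cbln3, all cerebellar and lower in Hsp72Tg, and without Hsp72Tg MCAO 1 they were Cap1 and Tmem87a, 2 in all. Other scalings, probe set rules, array weights and eBayes options called 0. Hspa1a changed sign, to 0.036, without Hsp72Tg sham 1, and was -0.212 without Hsp72Tg sham 2. The 37 separated genes became 151 at a distance of 0.25, 7 at 1, 24 with the mean over probe sets, 92 with every probe set, 38 after quantile normalization, 39 after median centring and 75 to 216 without 1 sham array. The 1 gene repeated after MCAO became 6 at a distance of 0.25, 0 at 1, 0 with the mean over probe sets, 2 with every probe set and 1 to 11 without 1 array. Fewer arrays and shorter distances make separation easier by construction. Among 35 named separated genes, 9 of 665 recomputed values newly passed the threshold. Their signs are held by the rule that chose them. Immediate early genes wholly higher stayed at 18 under both scalings and the mean over probe sets, with medians from 0.849 to 0.891.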

Other observations

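All 5 Hsp72Tg arrays, sham and MCAO together, lay above all 5 WT arrays in 24 genes and below them in 54, and in 0 genes by a distance of 0.25 or more. The widest distances were those of Gjc3, an oligodendrocyte connexin, at 0.189 and Dap3, a mitochondrial ribosome protein, at 0.184 for higher values in Hsp72Tg. Of the 46 genes with the stepped pattern, 3 were high on all 6 MCAO arrays and low on all 4 sham arrays. In 26, Il6 among them with a step of 3.30, the high arrays were the 3 WT MCAO arrays with Hsp72Tg MCAO 2 and Hsp72Tg MCAO 3, while Hsp72Tg MCAO 1 was at the sham level. Tph2, the serotonin synthesis enzyme of the raphe nuclei, read 5.39 and 5.40 in WT sham, 6.42 and 5.90 in Hsp72Tg sham and 3.93 to 4.86 over the MCAO arrays. Brainstem markers as a list gave 3 wholly higher and 1 wholly lower of 10 after sham surgery, beside 12.8% and 14.2% of all genes.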
